A study of Homo sapiens with 16 samples.

Results

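The antioxidant genes driven by the transcription factor NRF2, together with the superoxide dismutase genes SOD1 and SOD2, were followed in an immortalised human mesenchymal stromal cell (MSC) line made senescent with mitomycin C (MmC) and treated with growth differentiation factor 11 (GDF11). The list held 10 genes chosen by name: NFE2L2, which encodes NRF2, and NQO1, HMOX1, GCLC, GCLM, TXNRD1, SRXN1, SLC7A11, SOD1 and SOD2. Of these 10, 9 were matched by identifier to the 60649 rows of the count table. SOD2 was not: the annotation used here, GENCODE v44, carries it as ENSG00000291237, and the table has no row of that identifier. The table does hold a row ENSG00000112096.19, an identifier that earlier annotation releases are known to have used for SOD2. No reference used here pairs these identifiers, so this row is given under its identifier and is counted apart from the 9 members.

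The cells were ASC52telo, 1 adipose-derived MSC line immortalised with telomerase, so the replicates are cultures of 1 line and not donors. There were 16 libraries of poly(A) RNA in 4 groups of 4 replicates. The groups, young or senescent, were MmC-/GDF11- (neither agent), MmC-/GDF11+ (GDF11 at 10 ng/mL), MmC+/GDF11- (MmC, a DNA-alkylating agent, at 1.5 µg/mL for 18 h) and MmC+/GDF11+ (that MmC exposure, then GDF11 at 10 ng/mL), with 10 days of culture after the MmC step. Levels are in CPM, the count of a gene relative to the total of its library, after TMM scaling, and means are given ± SD over n = 4 libraries.

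NRF2 is held in the cytoplasm and marked for degradation by KEAP1 in unstressed cells. Oxidants and electrophiles release it, and with a small MAF protein it binds antioxidant response elements near genes that make glutathione, recycle thioredoxin, reduce quinones and break down haem. Because NRF2 is mostly set at the level of the protein, its own mRNA is not a measure of its activity. SOD1, in the cytosol, and SOD2, in mitochondria, turn superoxide into hydrogen peroxide. SOD2 is also a well-known target of NF-kB, and SLC7A11 of the stress factor ATF4.

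Library depth ran from 71275337 to 144204979 counts, and the 4 groups overlapped in depth. The libraries numbered 1 stood apart. Their root mean square difference from the other replicates of their own group was 0.48 to 0.679 in log2 CPM over the genes tested, against 0.349 to 0.428 for replicates 2 to 4, so results are also given without replicate 1. Summed MSC markers lay between 5089.9 and 6698.3 CPM in all 16 libraries, and summed epithelial markers between 0.5121 and 1.126 CPM. Single MSC markers moved in opposite directions with MmC and no GDF11. NT5E (0.38 on the log2 scale) and ITGB1 (0.35) passed as higher and PDGFRB (-0.68) as lower, while THY1 (-0.58), ENG (-0.06) and CD44 (0.28) did not pass. Summed adipocyte markers were 1.156 to 2.169 CPM in MmC-/GDF11- and 0.466 to 1.306 CPM in MmC+/GDF11-, with FABP4 lower (-0.95). Summed haematopoietic markers were 2.189 to 3.054 CPM in MmC-/GDF11- and 3.496 to 5.835 CPM in MmC+/GDF11-, where 2 of the 4 tested passed (CD14 and ITGAM, both higher) and PTPRC was at 0.282 to 0.806 CPM in all 16 libraries. Summed endothelial markers were 7.825 to 11.25 and 8.661 to 21.12 CPM, with PECAM1, VWF and KDR higher and CDH5 lower. CDKN1A, the cell cycle inhibitor p21, rose with MmC by 2.74 on the log2 scale (adjusted p = 3.89e-06), while the proliferation gene MKI67 fell by 1.70 (adjusted p = 0.00232). Fewer cells of a type and less RNA per cell cannot be told apart in such bulk libraries.

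With MmC and no GDF11, NQO1 and SOD1 fell, GCLC rose, and the row ENSG00000112096.19 rose by a larger fold than any member. NQO1 was 2.03-fold lower, SOD1 1.49-fold lower and GCLC 1.38-fold higher, and in each of the 3 the young and senescent libraries did not overlap. The row ENSG00000112096.19 was 8.9-fold higher (95% interval 6.47 to 12.2). Of the 9 members tested, 3 were called (33.3%), 1 higher and 2 lower, against 45.3% of the 19103 genes tested (22.9% higher and 22.4% lower). The members' share was below this background. Groups did not overlap for the same 3 members, against 37.3% of all genes tested (19.1% higher and 18.2% lower). Their median log2 difference was -0.10, beside -0.01 over all genes tested. Calls are from edgeR's quasi-likelihood test with Benjamini-Hochberg adjustment over all genes tested, at an adjusted p under 0.05.

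**Figure D1:**
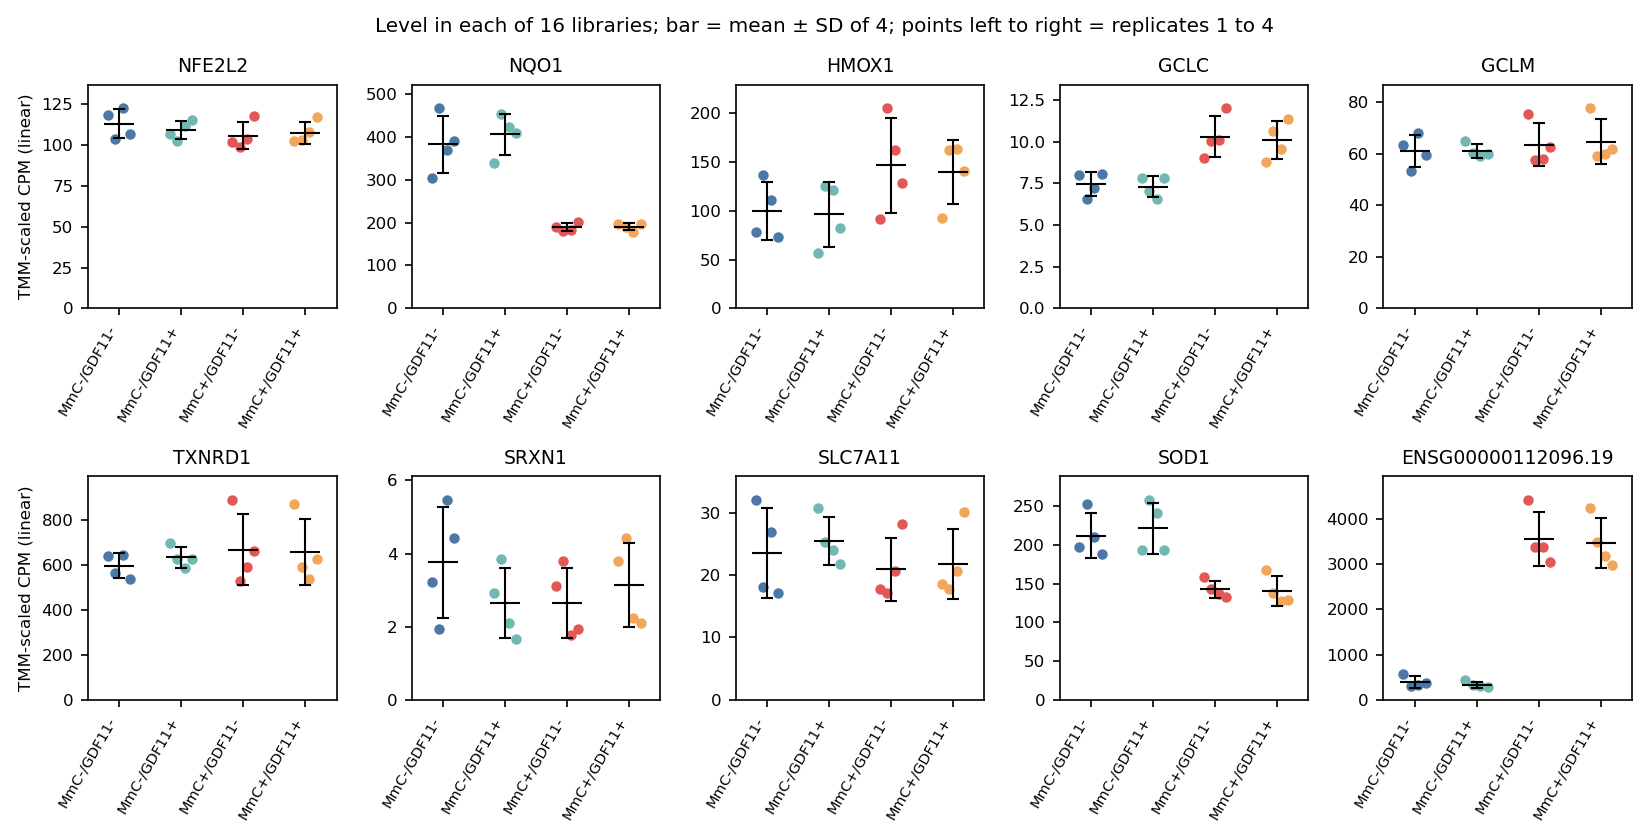
TMM-scaled CPM (linear axes from 0) of the 9 members and of the row ENSG00000112096.19 in each of the 16 libraries, by group; points from left to right are replicates 1 to 4 and bars are the mean ± SD of 4 libraries. NQO1 and SOD1 are lower, and GCLC and the row ENSG00000112096.19 higher, in every MmC+ library than in every MmC- library.

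The antioxidant response element is the sequence through which NRF2 is known to act, and 4 stretches are shown because they hold its letters near start sites of members described here. Windows of 300 bases (250 before to 50 after a RefSeq start site, GRCh38.p14) were found for 7 of the 10 members, in 12 windows. Both strands were searched for TGACNNNGC, the core of the element, and for the looser TGANNNNGC, which every TGACNNNGC also matches. The core occurs in 13.3% of the 35116 windows of all genes and in 2 members, GCLM and TXNRD1. The looser form occurs in 41.8% of windows and in 5 members, these 2 and NFE2L2, NQO1 and SOD2. A member with several windows (4 for SOD2, 2 each for NFE2L2 and TXNRD1) has more chances of a match. The counts of members can therefore not be compared with the shares of windows. HMOX1, SLC7A11 and SOD1 had no window. Shown are the core matches that lie, with their flanks, wholly before the start, and the looser match of NQO1. A core match of TXNRD1 8 bases before a start, and the looser matches of other members, are not shown. Each stretch has 10 bases on either side of the match, which is in capitals:

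GCLM, chr1:93909446-93909474 (+ strand), 34 bases before the start, of which 11 bases are annotated as UTR of GCLM: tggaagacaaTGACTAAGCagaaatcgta

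TXNRD1, chr12:104215670-104215698 (+ strand), 99 bases before the start, outside annotated genes: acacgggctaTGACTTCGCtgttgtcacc

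TXNRD1, a second start, chr12:104286920-104286948 (- strand), 102 bases before the start and in the UTR of another TXNRD1 transcript: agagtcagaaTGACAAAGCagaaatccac

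NQO1, looser form, chr16:69726661-69726689 (+ strand), 119 bases before the start, of which 8 bases are annotated as UTR of NQO1: cggaggatgcTGAGGCTGCagctccagga

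These matches are letters in a window and not evidence of binding. A window without them says only that the letters are not in those 300 bases.

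NFE2L2 (ENSG00000116044.16, in v44 ENSG00000116044.17 at chr2:177218667-177392756, - strand) was expressed at 118.5, 104, 122.5 and 107.1 CPM in MmC-/GDF11- replicates 1 to 4. In MmC+/GDF11- it was at 102.1, 99.13, 103.8 and 118 CPM. The groups overlapped, and the log2 difference was -0.10 (SE 0.0822, 95% interval -0.27 to 0.08, adjusted p = 0.361). With GDF11 in both arms the difference was -0.02 (adjusted p = 0.863). Of its exon bases in v44, 23.4% overlap HNRNPA3 on the opposite strand and 13.6% a non-coding RNA on the same strand. How the counting used strand is not given in the sources used here.

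NQO1 (ENSG00000181019.13, chr16:69706996-69726668, - strand) reduces quinones by 2 electrons in 1 step and is a widely used readout of NRF2. A non-coding RNA on the opposite strand overlaps 19.4% of its exon bases, and its part in the counts was not tested. It measured 304.9, 465.7, 369.8 and 389.7 CPM in MmC-/GDF11- and 189.8, 180.9, 183.2 and 201.3 CPM in MmC+/GDF11-. The highest senescent library was below the lowest young one, and the senescent libraries were closer together (SD 9.15 against 66.2). The log2 difference was -1.02 (SE 0.117, 95% interval -1.27 to -0.77, adjusted p = 5.8e-06). With GDF11 the levels went from 338.8, 452.3, 423.3 and 407.9 CPM to 196.7, 190.1, 178.9 and 197.2 CPM, a difference of -1.09 (SE 0.117, 95% interval -1.34 to -0.84, adjusted p = 3.22e-06). Without replicate 1 the differences were -1.12 (adjusted p = 6.76e-07) and -1.18 (adjusted p = 4.34e-07).

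HMOX1 (ENSG00000100292.18, chr22:35380361-35394214, + strand) encodes haem oxygenase 1, which opens the haem ring and frees iron. Its level varied with the replicate number: it was 78.13, 136.4, 111.6 and 73.01 CPM in MmC-/GDF11- and 91.19, 205, 162 and 128.2 CPM in MmC+/GDF11-. Replicates 2 and 3 were the highest pair in each of the 4 groups, and the young and senescent libraries overlapped. The log2 difference of 0.55 (SE 0.294, 95% interval -0.07 to 1.18) did not pass the test (adjusted p = 0.136). Between libraries of the same number, the senescent one was higher in 4 of 4 pairs, by 0.22, 0.59, 0.54 and 0.81 on the log2 scale. With the replicate number as a block the difference was 0.53 (SE 0.107, adjusted p = 0.000626), a fold of 1.23 to 1.69 (95% interval), and HMOX1 then passed, among 57.9% of all genes tested. Leaving replicate 1 out of every group, without the block, also brought it past the threshold (0.63, adjusted p = 0.0338). No other leave-out of 1 library or replicate number did, and over all of them the difference was 0.36 to 0.75 (adjusted p up to 0.36). With GDF11, HMOX1 was at 56.47, 125.7, 121.4 and 81.97 CPM in young and 92.57, 162.9, 163.1 and 141 CPM in senescent MSCs, a difference of 0.54 (SE 0.294, 95% interval -0.09 to 1.16, adjusted p = 0.147). Here too the senescent library was higher in 4 of 4 same-numbered pairs, by 0.71, 0.37, 0.43 and 0.78. Such agreement arises by chance with a two-sided probability of 0.125, and its share over all genes was not counted. In this comparison the numbers are not taken as pairs. SRXN1 was also higher in 4 of 4, by 0.37, 0.20, 0.09 and 0.32, and did not pass with the block in edgeR (adjusted p = 0.589). With the block in edgeR, HMOX1 passed at 0.58 (SE 0.107, adjusted p = 0.000317), among 59% of all genes tested. Without replicate 1 and without the block it did not pass (0.51, adjusted p = 0.0758).

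**Figure D2:**
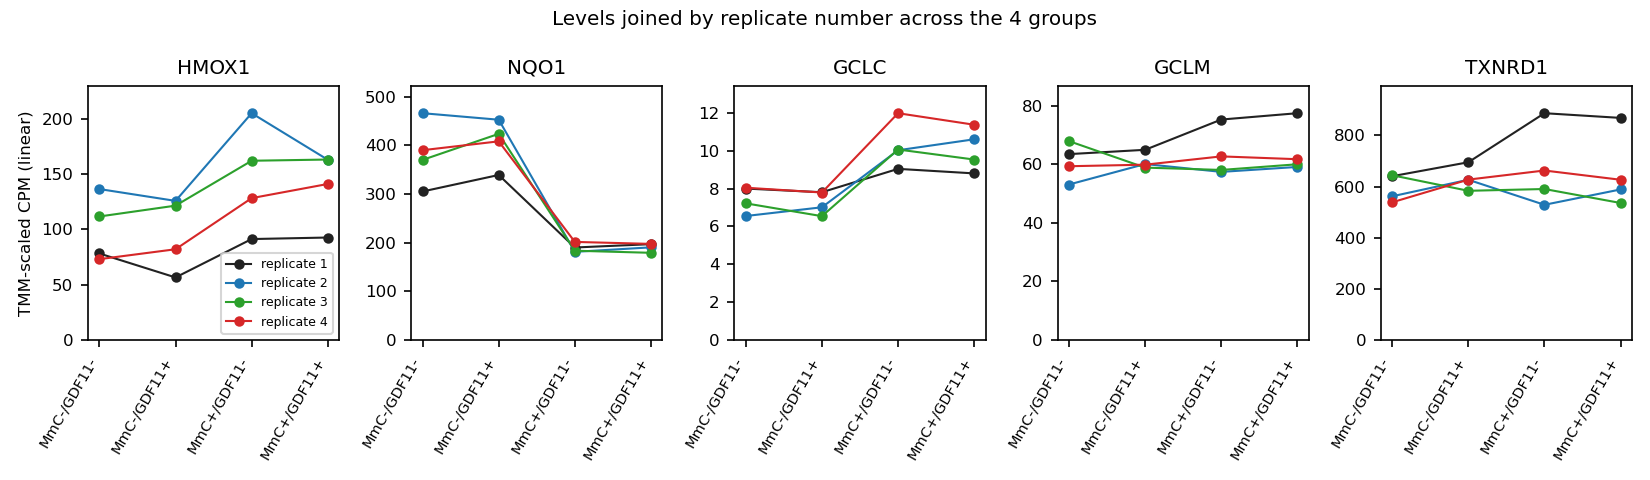
TMM-scaled CPM (linear axes from 0) of HMOX1, NQO1, GCLC, GCLM and TXNRD1 across the 4 groups, with libraries of the same replicate number joined by a line. HMOX1 rises from MmC-/GDF11- to MmC+/GDF11- within each of the 4 numbers although the groups overlap, and replicate 1 is the highest library for GCLM and TXNRD1 in both MmC+ groups.

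GCLC and GCLM encode the catalytic and modifier subunits of glutamate-cysteine ligase, the rate-limiting enzyme of glutathione synthesis. GCLC (ENSG00000001084.13, chr6:53497341-53616970, - strand) measured 8.004, 6.552, 7.222 and 8.049 CPM in MmC-/GDF11- and 9.046, 10.03, 10.07 and 11.99 CPM in MmC+/GDF11-. Every senescent library was above every young one, by 0.46 on the log2 scale (SE 0.116, 95% interval 0.22 to 0.71, adjusted p = 0.0042). With GDF11 the levels were 7.81, 7.014, 6.544 and 7.795 CPM against 8.806, 10.61, 9.539 and 11.38 CPM, a difference of 0.47 (SE 0.117, 95% interval 0.22 to 0.71, adjusted p = 0.00383). Replicate 1 showed the smallest step, and without it the differences were 0.56 (adjusted p = 0.0014) and 0.56 (adjusted p = 0.00125).

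GCLM (ENSG00000023909.10, chr1:93885199-93909456, - strand), the subunit that makes the enzyme less sensitive to feedback by glutathione, measured 63.48, 53.09, 67.92 and 59.34 CPM in MmC-/GDF11- and 75.29, 57.41, 58.07 and 62.7 CPM in MmC+/GDF11-. The groups overlapped, and the log2 difference was 0.06 (SE 0.109, 95% interval -0.17 to 0.29, adjusted p = 0.702). Per exon length, the ratio of GCLC to GCLM was 0.07939, 0.0777, 0.06695 and 0.0854 in MmC-/GDF11- and 0.07564, 0.11, 0.1092 and 0.1204 in MmC+/GDF11-. Replicate 1 of the senescent group lay among the young libraries and the other 3 above them. The mean log2 difference of this ratio was 0.41 (two-sided exact permutation test, p = 0.114, or 0.228 adjusted over the 8 ratio comparisons). It was 0.57 without replicate 1, with the smallest p that 3 against 3 libraries allow (exact permutation p = 0.1). With GDF11 the difference was 0.39 (exact permutation p = 0.114), and 0.55 without replicate 1.

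TXNRD1 (ENSG00000198431.16, in v44 ENSG00000198431.18 at chr12:104215779-104350307, + strand) is the cytosolic selenoenzyme that reduces thioredoxin. It measured 640.4, 561.8, 644.1 and 538.3 CPM in MmC-/GDF11- and 886.9, 528.5, 590.3 and 662.7 CPM in MmC+/GDF11-. The high senescent value was that of replicate 1, and the others lay around the young range. The log2 difference was 0.16 (SE 0.162, 95% interval -0.18 to 0.51, adjusted p = 0.439), and 0.03 without replicate 1 (adjusted p = 0.837). With GDF11 it was 0.05 (adjusted p = 0.827).

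SRXN1 (ENSG00000271303.2, chr20:646615-653200, - strand), sulfiredoxin, restores over-oxidised peroxiredoxins. Its counts are uncertain, because 90.7% of its exon bases are shared with a readthrough gene on the same strand. It measured 3.223, 1.946, 5.465 and 4.415 CPM in MmC-/GDF11- and 3.12, 3.787, 1.764 and 1.934 CPM in MmC+/GDF11-. The groups overlapped, with a log2 difference of -0.50 (SE 0.355, 95% interval -1.26 to 0.25, adjusted p = 0.263). It became -0.94 without replicate 2 of every group (adjusted p = 0.0422), the only leave-out under which it passed. Over all settings that left out 1 library or replicate number it was -0.94 to -0.11 (adjusted p up to 0.864). With GDF11 the difference was 0.25 (SE 0.356, adjusted p = 0.597).

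SLC7A11 (ENSG00000151012.13, chr4:138164097-138242349, - strand), the cystine-glutamate exchanger that brings in the cysteine for glutathione, shares 8.97% of its exon bases with its antisense RNA. It measured 32.04, 18.04, 26.95 and 17.14 CPM in MmC-/GDF11- and 17.77, 17.15, 20.61 and 28.15 CPM in MmC+/GDF11-. Replicate 1 was the highest of the young group and replicate 4 of the senescent group. The log2 difference was -0.17 (SE 0.221, 95% interval -0.64 to 0.30, adjusted p = 0.558), and -0.23 with GDF11 (SE 0.221, adjusted p = 0.425). Without replicate 1 these were 0.09 and -0.05, so no direction can be given for SLC7A11.

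SOD1 (ENSG00000142168.15, chr21:31659666-31668931, + strand), the copper and zinc superoxide dismutase, measured 197.4, 253.6, 210 and 188.5 CPM in MmC-/GDF11- and 158.2, 143.9, 136.3 and 133.4 CPM in MmC+/GDF11-. No senescent library reached the lowest young one. The log2 difference was -0.57 (SE 0.125, 95% interval -0.83 to -0.31, adjusted p = 0.00154). With GDF11 the levels were 194.3, 258.3, 240.9 and 194 CPM in young and 168.3, 137.6, 127.9 and 129.1 CPM in senescent MSCs, a difference of -0.66 (SE 0.125, 95% interval -0.92 to -0.39, adjusted p = 0.000511). Without replicate 1, which was the highest senescent library, the differences were -0.66 (adjusted p = 0.000408) and -0.81 (adjusted p = 6.98e-05).

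The row ENSG00000112096.19 measured 583, 298.3, 333.6 and 384.1 CPM in MmC-/GDF11- and 4422.2, 3372.3, 3392.8 and 3039.7 CPM in MmC+/GDF11-. The lowest senescent library was above the highest young one by several fold, and replicate 1 was the highest library of every group. The log2 difference was 3.15 (SE 0.218, 95% interval 2.69 to 3.61, adjusted p = 4.43e-08), and it ranked 438 from the highest log2 difference among the 19103 genes tested. With GDF11 the levels went from 430, 325.4, 317.2 and 279.4 CPM to 4249.4, 3485.3, 3172.8 and 2977.8 CPM, a difference of 3.36 (SE 0.22, 95% interval 2.90 to 3.83, adjusted p = 2.36e-08). Without replicate 1 these were 3.27 (adjusted p = 1.73e-10) and 3.39 (adjusted p = 1.41e-10). The row was the highest of the 142 rows that had no match in GENCODE v44, with a mean of 1916.5 CPM over the 16 libraries, where the next had 40.4 CPM.

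Within a library, the count ratio of this row to SOD1 needs no scaling between libraries. It was 2.953, 1.176, 1.588 and 2.037 in MmC-/GDF11-, and 27.95, 23.43, 24.89 and 22.78 in MmC+/GDF11-. The geometric means, 1.831 and 24.69, differed 13.5-fold, or 3.75 on the log2 scale. The two-sided exact permutation p was 0.0286, the smallest that 70 assignments of 4 against 4 libraries can give (0.114 adjusted over the 8 ratio comparisons), and with same-numbered libraries as blocks it was 0.125, the smallest that 16 sign assignments can give. With GDF11 the geometric means were 1.516 and 24.59, 16.2-fold apart (4.02 on the log2 scale, exact permutation p = 0.0286). Without replicate 1 the differences were 3.92 and 4.19.

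**Figure D3:**
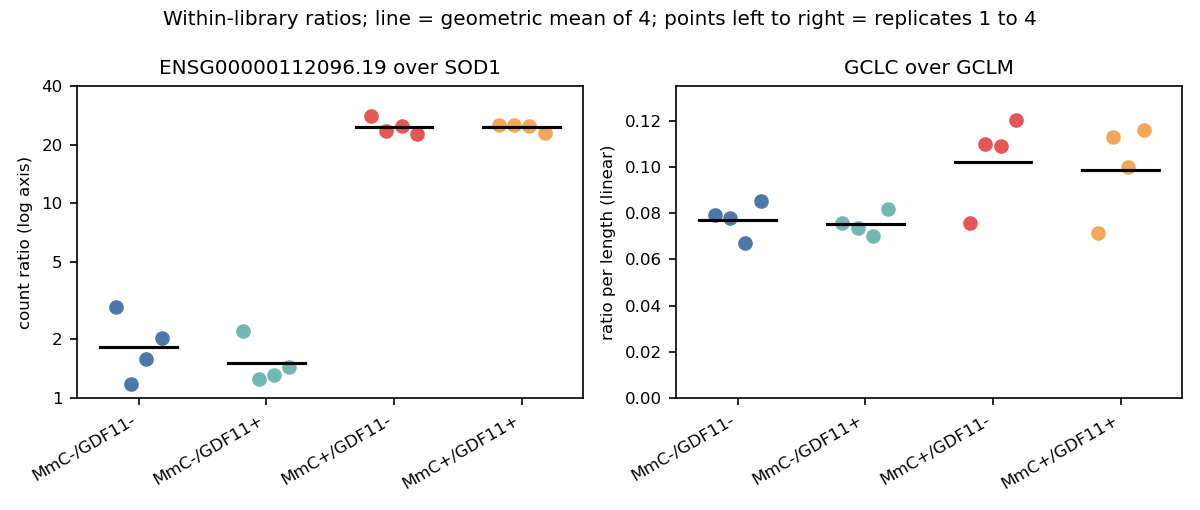
Left, count ratio of the row ENSG00000112096.19 to SOD1 (log axis); right, ratio of GCLC to GCLM per exon length (linear axis from 0), in each library by group, with a line at the geometric mean of 4. The left ratio lies at 1.176 to 2.953 in MmC- and 22.78 to 27.95 in MmC+ libraries, while replicate 1 of both MmC+ groups lies among the MmC- libraries in the right ratio.

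Per exon length (RPKM on the TMM scale, exon union of GENCODE v44), NQO1 was the most abundant of the 9 members in MmC-/GDF11-, at 128.7 ± 22.3. SOD1 followed at 107.5 ± 14.6, TXNRD1 at 88.8 ± 8.06 and HMOX1 at 43.3 ± 12.9. NQO1 and SOD1 overlapped, as did SOD1 and TXNRD1. GCLM was at 11.2 ± 1.16, NFE2L2 at 7.55 ± 0.593 and SLC7A11 at 2.44 ± 0.746, each pair of neighbours apart. SRXN1, at 1.49 ± 0.601, overlapped both SLC7A11 and GCLC, which was lowest at 0.865 ± 0.0827. In MmC+/GDF11- the order of levels per length began with TXNRD1 (99.4 ± 23.3), followed by SOD1 (72.4 ± 5.61), HMOX1 (63.6 ± 21) and NQO1 (63.55 ± 3.08). TXNRD1 and SOD1 overlapped there, and so did HMOX1 with both SOD1 and NQO1. GCLC (1.19 ± 0.143) and SRXN1 (1.05 ± 0.383) again overlapped at the bottom. NFE2L2 and TXNRD1 have another identifier version in the table than in v44, so their lengths are less certain. The place of SRXN1 is uncertain as its counts are, with 90.7% of its exon bases shared with the readthrough gene. An exon union holds every annotated exon, and those of NFE2L2 (14975 bases) and GCLC (8618 bases) are long. Which of these exons the cells used was not tested, so their low places are uncertain too. No length was to hand for the row ENSG00000112096.19.

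In the presence of GDF11 the picture of the members with MmC was the same 3 calls: GCLC higher and NQO1 and SOD1 lower, 3 of 9 against 46.7% of all genes tested (23.4% higher and 23.3% lower). The groups of these 3 did not overlap here either, against 41.5% of all genes tested (20.2% higher and 21.2% lower). Without replicate 1, 4 members passed without GDF11 (these 3 and HMOX1) and 3 with it, and without replicate 2 SRXN1 joined the 3 without GDF11, as given above. Leaving out replicate 3 of every group left the members at 3 and 3 but brought the calls over all genes from 8655 to 5490 without GDF11 and from 8926 to 5505 with it.

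**Figure D4:**
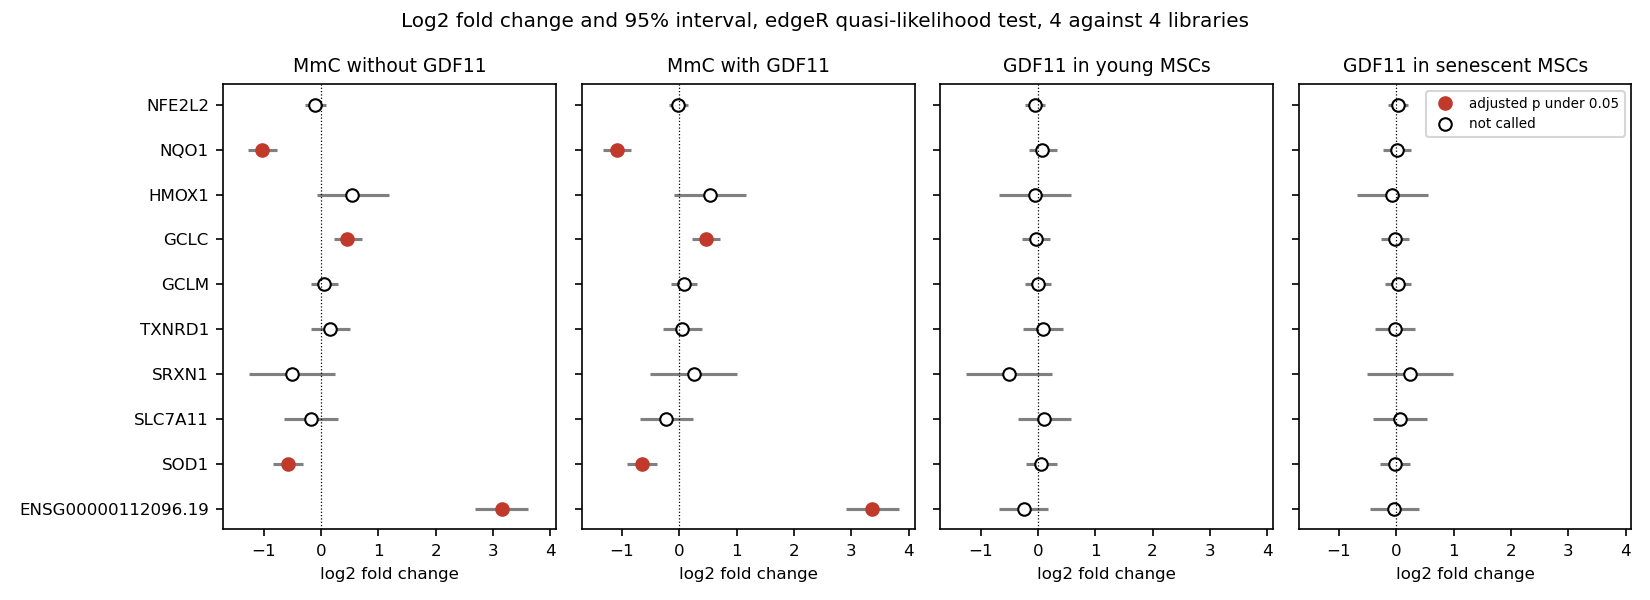
Log2 fold change (points) and 95% interval (lines) of the 9 members and the row ENSG00000112096.19 in 4 comparisons of 4 against 4 libraries; filled points passed at an adjusted p under 0.05. NQO1, GCLC, SOD1 and the row pass in both MmC comparisons, and no point passes in either GDF11 comparison.

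No member passed the test for GDF11, in young or in senescent MSCs. Neither comparison called any of the 19103 genes (background 0%). Before adjustment, 226 genes in young and 96 in senescent MSCs were below 0.05 by edgeR (1.18% and 0.503%). These shares are lower than the 0.05 that chance alone would give, and this fit leaves out the replicate number. With the replicate number as a block, 551 genes in young and 145 in senescent MSCs were below 0.05 before adjustment by edgeR. These too are lower shares of the 19103 genes than chance alone would give, and 0 genes passed adjustment in either comparison. By DESeq2 1 gene and 0 genes passed adjustment, and by limma-voom 0 and 0. None of the 9 members had an unadjusted p under 0.05 by edgeR, DESeq2 or limma-voom, and the adjusted p of each by edgeR was 1.

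The intervals say how large a GDF11 effect these libraries could have missed in the fit without a block, except where the block is named. In young MSCs the log2 difference of GDF11 was 0.08 for NQO1 (95% interval -0.16 to 0.33), -0.03 for GCLC (-0.28 to 0.21), 0.06 for SOD1 (-0.20 to 0.33) and -0.05 for NFE2L2 (-0.22 to 0.12). In senescent MSCs it was 0.01 for NQO1 (-0.23 to 0.26), -0.03 for GCLC (-0.27 to 0.22), -0.02 for SOD1 (-0.29 to 0.24) and 0.03 for NFE2L2 (-0.15 to 0.20). The intervals were wider for HMOX1, at -0.67 to 0.57 in young and -0.69 to 0.56 in senescent MSCs, and for SRXN1, at -1.26 to 0.25 and -0.51 to 0.99. With the replicate number as a block, the difference of HMOX1 in senescent MSCs was -0.04 (SE 0.107, adjusted p = 1), a fold of 0.833 to 1.14 (95% interval). That of SRXN1 was 0.24 (SE 0.362, adjusted p = 1), with the GDF11 library higher in 4 of 4 same-numbered pairs, by 0.29, 0.22, 0.35 and 0.11. SLC7A11 was also higher in 4 of 4 pairs, by 0.0046 to 0.10, with a difference of 0.06 under the block (SE 0.228, adjusted p = 1). Agreement of 4 of 4 pairs in 1 direction arises by chance with a two-sided probability of 0.125. The share of all genes with such agreement was not counted, so nothing is read from it here. For the row ENSG00000112096.19 the difference was -0.24 (-0.67 to 0.18) in young MSCs and -0.04 (-0.46 to 0.39) in senescent MSCs. With the block, the row in young MSCs was at -0.22 (SE 0.107), a fold of 0.732 to 1 (95% interval). HMOX1 in young MSCs was then at -0.08 (SE 0.107), a fold of 0.807 to 1.11.

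Whether GDF11 altered the response to MmC was tested as an interaction, the difference between the 2 MmC effects. EdgeR called 0 genes, with or without the replicate number as a block, and DESeq2 and limma-voom also called 0. Before adjustment, 172 genes (0.9%) were below 0.05 by edgeR without the block and 296 with it. Both are again lower shares than chance alone would give. SRXN1 had the largest value among the members, 0.75 (SE 0.502, 95% interval -0.32 to 1.82, adjusted p = 1). For HMOX1 it was -0.02 (-0.90 to 0.87) and for the row ENSG00000112096.19 it was 0.21 (-0.39 to 0.81). The ratio of that row to SOD1 differed by -0.27 with GDF11 in young MSCs (exact permutation p = 0.457) and by -0.0054 in senescent MSCs (exact permutation p = 0.943). The ratio of GCLC to GCLM differed by -0.04 and -0.05 (exact permutation p = 0.714 and 0.657).

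The rest of the pathway was read from 7 lists of 114 genes, of which 105 were tested. With MmC and no GDF11, 25 rose and 36 fell (58.1%, against 45.3% of all genes tested), with a median log2 difference of -0.10. With GDF11 26 rose and 35 fell, against 46.7% of all genes. Without replicate 1, 73 and 68 of the 105 passed, and without replicate 3, 42 and 44. The lists were chosen with results of these samples known, so their counts are a description.

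**Figure D5:**
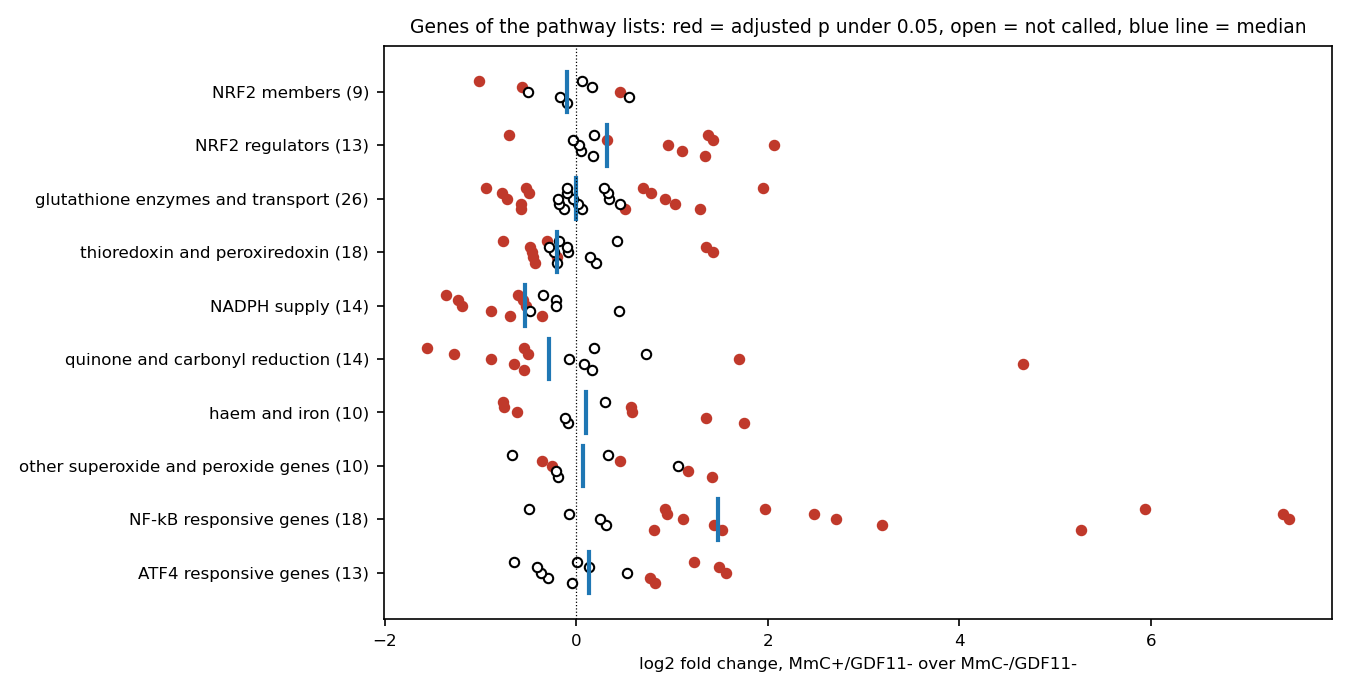
Log2 fold change of MmC+/GDF11- over MmC-/GDF11- for each tested gene of the 9 members, the 7 pathway lists and the NF-kB and ATF4 lists (number of genes in brackets); filled points have an adjusted p under 0.05 and the vertical bar is the list's median. The NADPH supply list lies mostly below 0, with a median of -0.54, and the NF-kB list mostly above 0, with a median of 1.48.

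Among the regulators of NRF2, 7 of 13 rose and 1 fell with MmC (61.5%, against 45.3% of all genes). The small MAF proteins, which pair with NRF2 and also, without it, repress the same sites, all rose: MAFF from 45.4 ± 10.6 to 188.9 ± 38.3 CPM (2.06 on the log2 scale, SE 0.19, adjusted p = 7.13e-07), MAFK by 1.34 (adjusted p = 4.16e-08) and MAFG by 1.10 (adjusted p = 6.36e-05). SQSTM1, the autophagy receptor p62 that can draw KEAP1 away from NRF2, rose from 501.5 ± 50.1 to 1304 ± 213 CPM (1.38, SE 0.134, adjusted p = 1.13e-06). The related factor NFE2L1 rose by 1.43 (SE 0.131, adjusted p = 6.56e-07). RBX1, a subunit of the ligase that marks NRF2 for degradation, fell by 0.70 (SE 0.155, adjusted p = 0.00164). KEAP1 itself was at 102 ± 8.24 and 104 ± 8.43 CPM (0.03, SE 0.0846, adjusted p = 0.809), and the difference of the repressor BACH1 was 0.17 (adjusted p = 0.279). With GDF11 the log2 differences were 1.95 for MAFF, 1.23 for MAFK, 1.09 for MAFG, 1.36 for SQSTM1, 1.44 for NFE2L1 and -0.86 for RBX1.

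Of 26 glutathione genes, 7 rose and 7 fell (53.8%, beside 45.3% of all genes), with a median of -0.0044, and with GDF11 6 rose and 5 fell (42.3%, below the 46.7% of all genes). GPX3, a secreted glutathione peroxidase, rose from 18.8 ± 10.3 to 72.3 ± 26.3 CPM (1.95, SE 0.4, adjusted p = 0.00115). GSTA4, a transferase for lipid aldehydes, fell from 19.9 ± 3.54 to 10.4 ± 1.74 CPM (-0.94, SE 0.158, adjusted p = 0.000194). GLO1, which detoxifies methylglyoxal, and the efflux pump ABCC4 each fell by 0.58 (adjusted p = 0.000241 and 0.00109). GSTP1, the main cytosolic glutathione transferase of many cells, fell by 0.52 (adjusted p = 0.0146), a call lost without MmC-/GDF11- replicate 2, MmC+/GDF11- replicate 4, or replicate 2 or 3 of every group (adjusted p up to 0.0807). SLC3A2, the heavy chain that carries SLC7A11 to the membrane, rose by 1.03 (adjusted p = 0.0168), a call lost without MmC+/GDF11- replicate 4 and without replicate 2, 3 or 4 of every group (adjusted p up to 0.121) and with no filter on low counts (adjusted p = 0.0604). GGT1 was near 0 in young MSCs, at 0.0508 CPM, and its rise (1.29, adjusted p = 0.0392) was lost without replicate 1, 3 or 4 of either group or of every group (adjusted p up to 0.191), by limma-voom (adjusted p = 0.0931) and with no filter on low counts (adjusted p = 0.068).

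Of 18 thioredoxin and peroxiredoxin genes, 2 rose and 7 fell (50%, near the 45.3% of all genes), with a median of -0.20. The 2 that rose were sestrins, p53 targets that restrain mTORC1: SESN2 from 32.8 ± 8.35 to 88.2 ± 11.2 CPM (1.43, SE 0.184, adjusted p = 1.85e-05) and SESN1 by 1.35 (SE 0.222, adjusted p = 0.000167). The third sestrin, SESN3, had a difference of -0.23 (adjusted p = 0.512). MSRB1, a methionine sulfoxide reductase, fell by 0.77 (adjusted p = 0.0012). TXN, thioredoxin itself and the substrate of TXNRD1, fell from 291 ± 56.8 to 208.5 ± 23.1 CPM (-0.48, SE 0.159, adjusted p = 0.0209), a call lost without replicate 2 or 3 of MmC-/GDF11-, replicate 2 or 4 of MmC+/GDF11-, or replicate 2 or 3 of every group (adjusted p up to 0.183). TXNRD3 fell by 0.46 (adjusted p = 0.00624), a call lost without replicate 2 or 3 of every group (adjusted p up to 0.0593).

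NADPH feeds both the glutathione and the thioredoxin arms. No gene of the NADPH supply list was called higher, and 1 had a log2 difference above 0. Of 14, 9 fell (64.3%, against 45.3% of all genes called and 22.4% lower), with a median of -0.54. The largest falls were those of the malic enzyme ME3, from 37.1 ± 4.61 to 14.4 ± 1.51 CPM (-1.36, SE 0.111, adjusted p = 2.36e-07), and of the isocitrate dehydrogenases IDH2 (-1.23, SE 0.118, adjusted p = 1e-06) and IDH1, from 195 ± 10.7 to 85.7 ± 6.37 CPM (-1.19, SE 0.0919, adjusted p = 1.45e-07). With GDF11 the list again had 0 genes called higher and 9 called lower, with a median of -0.55.

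Of 14 quinone and carbonyl reducing genes, the class of NQO1, 2 rose and 7 fell (64.3%, against 45.3% of all genes), with a median of -0.29. The aldo-keto reductases split: AKR1B1, which reduces glucose to sorbitol, rose from 208 ± 27.1 to 675 ± 141 CPM (1.70, SE 0.166, adjusted p = 1.2e-06), while AKR1C3, which acts on steroids and prostaglandins, fell from 90.9 ± 23.8 to 30.8 ± 13.1 CPM (-1.56, SE 0.309, adjusted p = 0.000852), and AKR1C2 fell by 0.89 (adjusted p = 0.00191). CBR3, a carbonyl reductase, fell from 40.5 ± 5.95 to 16.7 ± 0.92 CPM (-1.28, adjusted p = 6.66e-07). ALDH3A1 rose from 0.0211 to 0.537 CPM (adjusted p = 0.000629). Its young libraries lay between 0 and 0.065 CPM, so the size of its fold is not given.

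Among 10 genes of haem and iron handling, the pathway that HMOX1 opens, 4 rose and 3 fell (70%, against 45.3% of all genes). FTH1, the ferritin heavy chain, rose from 3213 ± 608 to 10818 ± 2244 CPM (1.75, SE 0.187, adjusted p = 2.76e-06). The iron importer TFRC, the transferrin receptor, rose as well, from 125.5 ± 18.3 to 319 ± 25.6 CPM (1.35, SE 0.143, adjusted p = 2.66e-06). ALAS1, the first enzyme of haem synthesis, rose by 0.58 (adjusted p = 0.00121), and FTL, the ferritin light chain, by 0.57 (adjusted p = 0.00492). The biliverdin reductases BLVRB and BLVRA, the step after haem oxygenase, fell by 0.77 (adjusted p = 8.32e-05) and 0.62 (adjusted p = 0.000137), and FECH, the last enzyme of haem synthesis, fell by 0.75 (adjusted p = 7.7e-05).

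Of 10 other genes of superoxide and peroxide handling, 3 rose and 2 fell (50%, near the 45.3% of all genes). CAT, catalase, fell from 72.7 ± 4.52 to 56.8 ± 3.4 CPM (-0.36, adjusted p = 0.00152), and the lactonase PON2 rose by 0.46 (adjusted p = 0.0012). DUOX1 and CYBA, parts of enzymes that make superoxide or peroxide, passed at levels under 1 CPM (1.42, adjusted p = 0.00425, and 1.17, adjusted p = 0.0418), and the call of CYBA was lost in 11 of the 20 settings that left out 1 library or 1 replicate number (adjusted p up to 0.158), replicates 2, 3 and 4 of both groups among them. The call of DUOX1 was lost without replicate 2 or 3 of every group (adjusted p up to 0.0667).

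SOD2 and SLC7A11 also answer to other factors, so 2 more lists were read beside them. Of 18 genes known to respond to NF-kB, 14 rose and 0 fell (77.8%, against 45.3% of all genes tested, of which 22.9% were higher), with a median of 1.48 and, with GDF11, 1.55. The row ENSG00000112096.19, at 3.15, was above that median and inside the list's range of -0.49 to 7.44. Whether NF-kB had a part in the rise of this row, or ATF4 in the level of SLC7A11, was not tested. The chemokine CXCL8 rose from 19.8 ± 5.45 to 3431 ± 1643 CPM (7.44, SE 0.601, adjusted p = 3.59e-07), and IL6 and CXCL1 rose by 7.38 and 5.94. Of 13 genes known to respond to ATF4, SLC7A11 not counted, 5 rose and 0 fell (38.5%, below the 45.3% of all genes tested), with a median of 0.13. DDIT3, which encodes CHOP, rose from 21.4 to 63.2 CPM (1.56, adjusted p = 0.0014) and VLDLR by 1.49. TRIB3 rose by 1.23 (adjusted p = 0.0104), a call lost without replicate 2, 3 or 4 of every group (adjusted p up to 0.0849), while ATF4 mRNA had a difference of -0.05 (adjusted p = 0.819). With GDF11 5 of the 13 rose and 2 fell, with a median of -0.08. The haematopoietic markers given above, whose sum reached 5.835 CPM, were higher in the same libraries, and their part in these lists was not tested.

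The genes whose pattern over the 16 libraries was most like that of a member were found by the root mean square difference of centred log2 CPM over 13976 protein-coding genes. For the row ENSG00000112096.19 they were POU2F2 (0.225), PTPRU (0.24) and AMPD3 (0.263), against the row's own root mean square of 1.66. For HMOX1 they were UGT2B7 (0.218), UBALD2 (0.238) and JUNB (0.242), against 0.492, and for SLC7A11 ZNF572 (0.187), XPOT (0.188) and N4BP2L1 (0.191), against 0.316. These distances describe likeness of pattern over 16 libraries that share 4 groups, and nothing more.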

How the data were processed

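Poly(A) RNA of ASC52telo MSCs was sequenced in 16 libraries. Per the labels, reads were aligned to hg38 with HISAT2 2.2.1, sorted with SAMtools 1.9 and counted with featureCounts 2.0.1 on GENCODE V38, and the authors deposited raw counts per gene. The strand setting, the handling of multimapping reads and the test of the authors are not given in the sources used here. The deposited counts were matched to gene names by identifier with GENCODE v44, where 142 of 60649 rows had no match and 104 protein-coding genes, SOD2 among them, had no row.

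Counts were kept by filterByExpr (minimum count 10, total 15), which left 19103 genes, scaled by TMM and fitted with edgeR 4.0.16 (R 4.3.3) in a robust quasi-likelihood model with 1 mean per group over all 16 libraries and no block. P-values were adjusted by Benjamini-Hochberg over all genes tested, with a threshold of 0.05, and 95% intervals come from the same fit. Log2 CPM used a prior count of 2. Ratios of counts within a library were compared by two-sided exact permutation tests (scipy 1.17.1). The edgeR script was tested on simulated data first. Intervals cover the spread between replicates, which the study calls biological.

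The labels put all libraries in 1 run. The study names batch effects among its limitations without saying which libraries they touch, so no batch term other than the replicate number, which comes from the labels, could be fitted. Deviations of same-numbered libraries from their group means correlated, lowest to highest, at 0.113 to 0.368 for MmC without GDF11, 0.0293 to 0.311 for MmC with GDF11, 0.0982 to 0.504 for GDF11 in young and 0.448 to 0.818 for GDF11 in senescent MSCs. Each correlation was over 0.1 only in the first and last of these. Values with the replicate block are therefore given mainly beside results of those 2 comparisons where they differ. They are also given for HMOX1 and SRXN1 in MmC with GDF11, and for HMOX1, SRXN1 and the row ENSG00000112096.19 with GDF11 in young MSCs. The numbers of genes called or below 0.05 for GDF11 and for the interaction are given with the block too.

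Named were the 10 members, KEAP1, BACH1, MAFF, MAFG, MAFK and SQSTM1, and from each list, in each MmC comparison, up to the 3 largest rises and 3 largest falls among genes called the same way in both, so that a list can give more than 3; for 3 members also the 3 genes of nearest pattern. The members and lists were chosen with earlier results of these data known. Alternatives were other scalings and filters, only the libraries compared, the replicate block, DESeq2 1.42.0, limma-voom (limma 3.58.1), a test against a fold of 1.5, and leaving out each library or replicate number.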

Additional observations from a re-analysis of the deposited data

Results flagged for a closer look

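Of the 40 groups of 4 libraries examined (the 9 members and the row ENSG00000112096.19 in each treatment group), 1 held a library far from the other 3. Chance gives about 1 in 20, or 2 among these 40, so the number found was not above chance. GCLM in MmC+/GDF11+ was at 77.46 CPM in replicate 1, and the nearest other library was at 61.74 CPM. The gap was 0.856 of the range of the group. Replicate 1 was also the highest library for GCLM in MmC+/GDF11- (75.29 CPM), and the libraries numbered 1 stood apart from their groups over all genes as well.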

How the results depend on the processing

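The calls of NQO1 and of the row ENSG00000112096.19 held under every alternative run, and those of GCLC and SOD1 under all but the test against a fold of 1.5. That test by its construction calls fewer genes: 1 member, 20 pathway genes and 2799 of all genes without GDF11, and 1, 20 and 2834 with it. The replicate block gave 4 members, 76 pathway genes and 11066 genes without GDF11 and 4, 76 and 11267 with it; in the latter comparison, where the numbers are not taken as pairs, HMOX1 passed at 0.58 (adjusted p = 0.000317) and SLC3A2 did not, and besides HMOX1 without GDF11 the block changed no other call of a named gene. Under the block the ratio of the row ENSG00000112096.19 to SOD1 kept its differences of 3.75 and 4.02, each with an exact permutation p = 0.125, the smallest possible there. DESeq2 called 1 gene for GDF11 in young MSCs, where edgeR called 0. Leaving out 1 library or replicate number gave 3 to 4 members, 42 to 73 pathway genes and 5490 to 10004 genes for MmC without GDF11, and 3 to 3, 44 to 68 and 5505 to 10164 with it. For GDF11 in young MSCs it gave 0 to 1 gene (1 without MmC-/GDF11+ replicate 2, and 1 without replicate 2 of every group), while the interaction and the senescent comparison stayed at 0. The ratio of the row to SOD1 ranged from 3.54 to 3.98 and from 3.92 to 4.20 for MmC, from -0.48 to -0.04 for GDF11 in young and from -0.04 to 0.05 in senescent MSCs, and that of GCLC to GCLM from 0.31 to 0.57, 0.31 to 0.55, -0.10 to 0.01 and -0.20 to 0.10. Over single genes, 4040 values were recomputed, of which 3915 kept their side of the threshold, 121 lost a call and 4 gained one. Among the first, 121 values, not called in either fit, changed sign, and 0 called values did. Under the other scalings the median log2 difference of all genes lay between -0.02 and 0.03. The causes of these differences were not tested. With 4 libraries a group and no block, the 95% interval for GDF11 in young MSCs reaches -0.67 in HMOX1 and -1.26 in SRXN1. With the replicate number as a block, the SE there went from 0.293 to 0.107 for HMOX1 and from 0.356 to 0.371 for SRXN1. The 95% intervals were then folds of 0.807 to 1.11 and 0.367 to 1.13.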
